A study of Caenorhabditis elegans with 3 samples.

Results

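The arms of chromosome V held 608 of the 9187 LET-418 peaks (6.62%) that the authors deposited as their combined list for L3 larvae of Caenorhabditis elegans. A peak was counted as an arm peak when its midpoint lay at or below position 5897000 (left arm) or above position 16550000 (right arm) on chromosome V of WormBase WS220, so position alone chose the peaks. The left arm held 279 peaks in 5.90 Mb. The right arm held 329 peaks in 4.33 Mb, measured to position 20880116, where the last V peak of the 3 lists ends. The centre of V, between the boundaries, held 772 peaks in 10.7 Mb, and the rest of the combined list outside the V arms held 8579. All samples came from strain N2, wild type in genotype, as a mixed population of males and hermaphrodites at the L3 stage grown at 20 °C. The labels give 2 chromatin immunoprecipitation (ChIP) replicates, made with the polyclonal rabbit antibody SDQ3861 against LET-418, and 1 input DNA library that was left out here. Separate cultures for the replicates are not recorded in the labels, and their differences may be technical. Whole animals were used, so a peak cannot be placed in a tissue.

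LET-418 is the worm's counterpart of Mi-2, an ATPase that moves nucleosomes. It belongs to the NuRD complex, which joins remodelling to histone deacetylation, and to the MEC complex. In the worm it is known for keeping germline genes off in somatic cells and for roles in vulval and larval development. Autosome arms of C. elegans recombine more than the centres and are richer in repeats and in fast-changing gene families. On V these include the G-protein-coupled chemoreceptor families, whose products detect odours and other chemical cues. In RefSeq's gene table for assembly WBcel235, 888 of 1308 protein-coding genes with a symbol of 22 such families (among them srh, str, srw and sri) were on V (67.9%), against 25.01% of all protein-coding genes. That table is on another build than the peaks, so no peak was assigned to a gene.

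The combined list was read beside the list of each replicate, which held 16140 peaks in replicate 1 and 9817 in replicate 2. No list gives read counts, so depth is unknown, and more peaks in a list may reflect deeper sequencing or stronger enrichment. Intervals below are at 95% and cover counting error only. Neighbouring peaks are not independent, so the intervals are narrower than the true error. A difference was stated where the interval of the combined list excluded no difference and both replicate lists lay on the same side.

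The left arm was the sparse arm. It held 47.3 combined peaks per Mb (exact Poisson interval 41.9 to 53.2), against 76.0 (68.0 to 84.6) on the right arm, a ratio of 0.62 (0.53 to 0.73). The replicate 1 list gave 99.2 peaks per Mb on the left and 140.2 on the right, a ratio of 0.71 (0.63 to 0.79). The replicate 2 list gave 47.0 and 73.4, a ratio of 0.64 (0.54 to 0.75). Left lay below right in each list, and no interval of these ratios reached 1. In covered sequence, combined peaks took up 1.42% of the left arm and 2.63% of the right arm.

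The arms together held 59.4 combined peaks per Mb (54.8 to 64.4), against 72.5 (67.4 to 77.8) in the centre of V, a ratio of 0.82 (0.74 to 0.91). The size of that gap differed between replicates. The ratio was 0.97 (0.90 to 1.05) in replicate 1, an interval that includes 1, and 0.68 (0.61 to 0.75) in replicate 2. Among combined peaks at or above the list's median score the ratio turned to 1.197 (1.03 to 1.39), so the direction held for all peaks and not for the better-scoring ones. The left arm alone was below the centre in each list, with ratios of 0.65 (0.57 to 0.75) in the combined list, 0.83 (0.75 to 0.91) in replicate 1 and 0.55 (0.48 to 0.63) in replicate 2. The right arm was not placed consistently, at 1.05 (0.92 to 1.19) times the centre in the combined list, 1.17 (1.06 to 1.29) in replicate 1 and 0.86 (0.75 to 0.98) in replicate 2. Against all sequence outside the V arms, the arms' density ratio was 0.62 (0.57 to 0.68) in the combined list, 0.70 (0.66 to 0.74) in replicate 1 and 0.57 (0.52 to 0.62) in replicate 2.

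**Figure D1:**
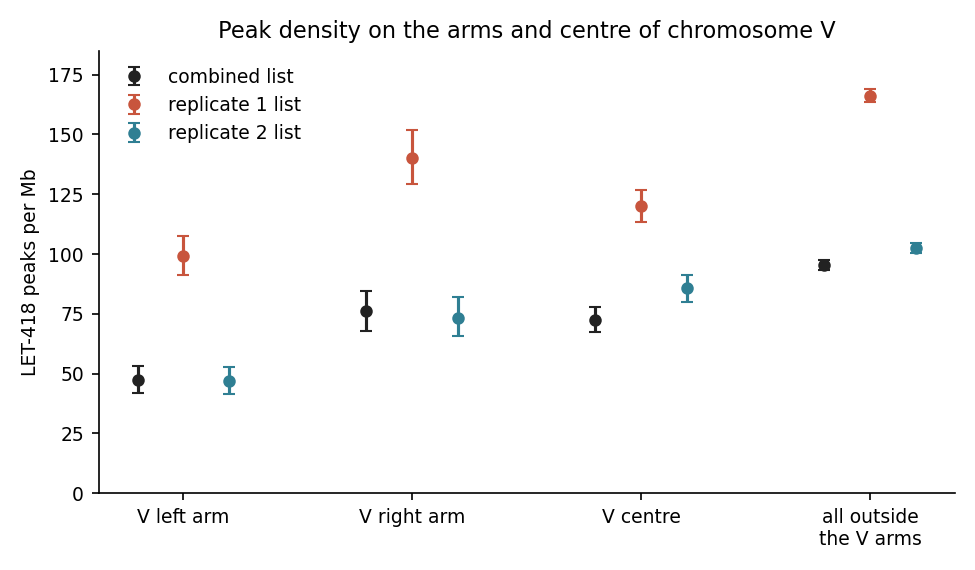
LET-418 peaks per Mb on the V left arm, the V right arm, the V centre and all sequence outside the V arms, in the combined list and in each replicate list. Points are densities and bars are exact 95% Poisson intervals (counting error only); the left arm is the lowest of the 4 regions in every list.

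When the other autosomes were cut at the same fractions of their length as V, the outer parts of V had the lowest density of the 5 autosomes. The value for V was 59.4 combined peaks per Mb, against 81.9 on IV, 90.0 on II, 96.3 on I and 140.5 on III. V was also lowest in the replicate 1 list (116.6, against 149 on IV, the next) and in the replicate 2 list (58.2, against 82.6 on IV). The left arm of V, at 47.3 per Mb, stood below the left part of each other autosome in the combined list, where II was next with 85.8. The right arm did not stand apart in this way, since the right part of IV held 45.5 per Mb. The centre of V was sparse too, at 72.5 per Mb, against 71.8 on IV, 100.5 on II, 104.8 on III and 108.9 on I. The combined density ratio of outer parts to centre was 0.82 on V, 0.88 on I, 0.90 on II, 1.14 on IV and 1.34 on III. An uneven left and right was not particular to V, since the left to right ratio was 1.89 on III and 2.39 on IV. With 1 chromosome V there is no replicate of this comparison, and the cuts on the other autosomes are not their known arm boundaries.

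The peaks of the right arm lay mostly in its outer part. With each arm cut at its midpoint, the outer part of the right arm held 244 combined peaks (113 per Mb) and the inner part 85 (39.3 per Mb), a ratio of 2.87 (2.23 to 3.72). The same ratio was 2.37 (1.99 to 2.84) in replicate 1 and 2.79 (2.16 to 3.62) in replicate 2. The left arm showed no such slope, with 139 combined peaks in its outer part and 140 in its inner part, a ratio of 0.99 (0.78 to 1.26). Its ratio was 1.10 (0.94 to 1.30) in replicate 1 and 0.86 (0.67 to 1.10) in replicate 2, on opposite sides of 1. The gap between the arms in total density thus goes with the outer right arm, since the inner right arm, at 39.3 per Mb (31.4 to 48.5), had a lower value than the left arm's 47.3.

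In 500-kb windows counted inward from the right end, the first 5 windows held 120, 132, 100, 118 and 104 combined peaks per Mb. The next 3 held 56, 10 and 4. The shorter last window, 330 kb long and next to the centre, held 21.2. The 11 full windows of the left arm ranged from 30 to 80 combined peaks per Mb with a median of 40. Replicate 1 had more peaks than replicate 2 in all 11 full windows of the left arm and in 7 of the 8 of the right arm. The exception was the eighth window from the right end, where each replicate list had 3 peaks. In the centre replicate 1 had more in 20 of 21 full windows, and its list is the longer over the whole genome.

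**Figure D2:**
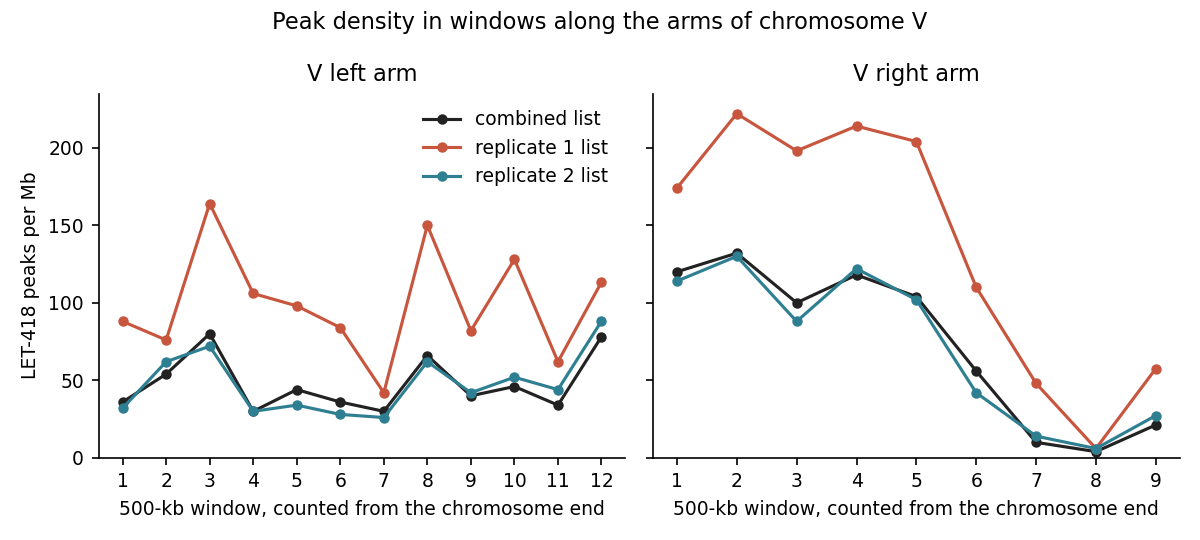
Peaks per Mb in 500-kb windows counted inward from each end of chromosome V, for the combined list and each replicate list; the innermost window of each arm is shorter (397 kb left, 330 kb right). The right arm falls to 4 combined peaks per Mb in window 8, while the left arm stays between 30 and 80 in its full windows.

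Arm peaks were narrow, as were peaks elsewhere. The median width in the combined list was 225 bp on the left arm (quartiles 183 and 331 bp), against 231 bp on the right arm (180 and 366 bp). For the arms together it was 227 bp, against 234 bp in the centre. Left was wider than right in replicate 1 (229 and 223 bp) and narrower in replicate 2 (238 and 241 bp), so no direction between the arms can be given for the median. The narrowest peak was 146 bp in both arms and in each list. Peaks wider than 1 kb numbered 4 of 279 on the left arm (1.43%, Wilson interval 0.559 to 3.63%), against 14 of 329 on the right arm (4.26%, 2.55 to 7.02%). This difference of −2.82 percentage points (Newcombe interval −5.72 to −0.0437) had the same sign in replicate 1 (−0.566, −2.55 to 1.40) and replicate 2 (−2.41, −5.88 to 1.07), where its interval included 0.

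The median distance between neighbours was longer on the left arm in each list, but the intervals of the arms overlapped in the combined list and the difference was not tested. The median distance between adjacent midpoints of combined peaks was 2379 bp on the left arm (order-statistic interval 1475 to 4016 bp), against 1626 bp on the right arm (1199 to 2153 bp), a ratio of 1.46. It was 1877 and 1280 bp in replicate 1 (ratio 1.47) and 2810 and 1668 bp in replicate 2 (ratio 1.68). The arms differ more in their upper quartiles, 21648 bp on the left and 7314 bp on the right, than in their lower quartiles, 675 and 639 bp. 

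Peaks gathered in groups on both arms, with a lower share of grouped peaks on the left, the sparser arm. For this count, neighbours with gaps under 1 kb were joined into regions of combined peaks. Fewer peaks per Mb lower such a share by themselves, and no correction for density was made. On the left arm 161 of 279 peaks (57.7%, Wilson interval 51.8 to 63.4%) shared a region with another peak, against 222 of 329 on the right arm (67.5%, 62.2 to 72.3%). The difference was −9.77 points (Newcombe interval −17.4 to −2.06), and it was −12.2 (−17.4 to −6.79) in replicate 1 and −9.67 (−17.4 to −1.85) in replicate 2. It did not hold when peaks had to lie within 500 bp (−2.07, −9.97 to 5.87) or when both boundaries were moved 500 kb towards the centre (−6.81, −14.0 to 0.447). The left arm had 51 regions of several peaks and 118 single peaks, and the right arm 67 regions and 107 single peaks. Regions of 5 or more peaks numbered 7 on the left and 8 on the right, with 50 and 71 peaks. The share in regions over both arms was 63.0%, against 64.1% in the centre, a difference of −1.13 points (−6.24 to 3.96).

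The left arm's region with the most peaks ran from 5843501 to 5852393, 8.89 kb long. It held 13 combined peaks, all of them found in both replicates, 12 replicate 1 peaks and 13 replicate 2 peaks. It lies at the inner edge of the arm, and its last peak, from 5852196 to 5852393 (score 2.06), was the last arm peak before the boundary. The first peak outside began at 5963650 (to 5964054, score 6.03), across 111 kb without a combined peak. The next left-arm regions were from 976911 to 980821 with 8 peaks and from 1471181 to 1477607 with 7. On the right arm the region with the most peaks ran from 20409111 to 20420321, 11.2 kb long, with 18 combined peaks, 17 of them in both replicates, over 15 replicate 1 and 14 replicate 2 peaks. It was followed by the regions from 19883777 to 19889916 with 10 peaks and from 20776701 to 20783064 with 9. All 3 right-arm regions lay in the outer part of that arm. At the right arm's boundary the last peak outside ran from 16547241 to 16547599 (score 4.26) and the first inside from 16592182 to 16592358 (score 3.02).

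Some replicate peaks spanned several combined peaks. On the left arm 47 of 279 combined peaks (16.8%) shared a replicate 1 peak with another member, against 31 of 329 on the right (9.42%). For replicate 2 the numbers were 36 (12.9%) and 22 (6.69%). In the centre the shares were 15.4% for replicate 1 and 17.2% for replicate 2, so the left arm was near the centre in replicate 1 and both arms had lower values in replicate 2. The clearest case was the widest peak of each replicate on the left arm, which in replicate 1 ran from 3434573 to 3441163 (in replicate 2, 3434581 to 3441149). The 5 combined peaks there covered only 1049 bp and had scores of 1.43 to 2.06, near the bottom of the list, whereas the replicate peaks scored 10.4 and 7.27. The widest right-arm peak of replicate 1 (19122266 to 19124842) and that of replicate 2 (20100962 to 20103376) each overlapped 1 combined peak of nearly the same width, 2392 and 2408 bp.

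Long stretches without a combined peak made up most of both arms. Stretches of at least 50 kb numbered 40 on the left arm (median 78.6 kb) and 16 on the right arm (median 140.6 kb), and covered 70.0% and 58.5% of the arms' length. The share was 65.1% for the arms together, against 58.3% in the centre, and it was also higher in the arms in replicate 1 (42.7%, against 34.1%) and in replicate 2 (63.4%, against 47.3%). Left and right changed places with the list and with the length asked for. In the replicate 1 list the left arm's share was 41.8% and the right arm's 43.8%, and with stretches of at least 100 kb in the combined list the difference, left minus right, was −12.4 points, against 11.5 at 50 kb. The left arm had more, shorter stretches and the right arm fewer, longer ones. At least 100 kb long were 15 of 40 stretches on the left, against 13 of 16 on the right.

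The 5 longest stretches of the left arm ran from 2278862 to 2600657 (322 kb), 2949720 to 3193196 (243 kb), 3803614 to 4029756 (226 kb), 2676798 to 2890714 (214 kb) and 5330239 to 5505108 (175 kb). Wholly within them lay 10, 1, 8, 8 and 0 replicate 1 peaks and 2, 3, 1, 0 and 0 replicate 2 peaks. The stretch from 5330239 was thus bare in both replicate lists, and the one from 2949720 was the only stretch of either arm with more replicate 2 than replicate 1 peaks. The 5 longest of the right arm ran from 17519416 to 17857145 (338 kb), 17210451 to 17514489 (304 kb), 16966872 to 17210302 (243 kb), 18112739 to 18330406 (218 kb) and 16595701 to 16774772 (179 kb). They held 18, 0, 0, 3 and 2 replicate 1 peaks and 1, 0, 0, 0 and 0 replicate 2 peaks. The adjoining stretches from 16966872 and 17210451 were bare in both replicates and separated by a combined peak of 148 bp, from 17210303 to 17210450 (score 4.95).

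A band of the right arm next to the centre was sparse, and held 11 of the 85 combined peaks of the inner part. From the arm's boundary to position 17857145, 1.31 Mb held 11 combined peaks (8.42 per Mb, 4.20 to 15.1), 42 replicate 1 peaks (32.1 per Mb, 23.2 to 43.4) and 15 replicate 2 peaks (11.5 per Mb, 6.42 to 18.9). The remaining 3.02 Mb of the right arm held 318 combined peaks (105 per Mb, 93.9 to 117), 565 replicate 1 peaks (187 per Mb, 172 to 203) and 303 replicate 2 peaks (100.2 per Mb, 89.3 to 112). This inner band was picked after its values were seen, and low density did not begin at the arm boundary. The adjoining window of the centre, from 15897001 to 16397000, held 24 combined peaks per Mb, and the shorter one from there to the boundary 19.6. Of its 11 combined peaks, 10 were found in both replicates. The peak from 17519235 to 17519415, 1 of the 33 right-arm peaks at the ceiling score of 9.03, stood in this band, with a neighbour 4.50 kb to its left and none for 338 kb to its right. Whether reads could be placed uniquely across the band was not tested.

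Over all 56 stretches of both arms, 195 replicate 1 peaks (29.5 per Mb, 25.5 to 33.9) and 29 replicate 2 peaks (4.38 per Mb, 2.94 to 6.30) lay wholly within. In the 74 stretches of the centre the numbers were 181 (28.9 per Mb, 24.9 to 33.5) and 68 (10.9 per Mb, 8.44 to 13.8). Replicate 1 thus had similar densities in the stretches of arms and centre. Both lay far below its 116.6 and 120.1 per Mb over the whole regions, in part by the choice of stretches. Combined peaks overlapped 47.5% of its arm peaks and 55.4% of its centre peaks, and such peaks cannot lie wholly within a stretch. Replicate 2 had a lower density in the stretches of the arms than in those of the centre. It was also sparser over the arms as a whole (58.2 per Mb, against 85.6), and more of its arm peaks overlapped a combined peak (85.0%, against 72.9%). Its density was 5.88 per Mb (3.77 to 8.75) in left-arm stretches and 1.97 (0.641 to 4.61) in right-arm ones. Of the 56 stretches, 8 held no peak of either replicate, 27 held replicate 1 peaks alone, 0 held replicate 2 peaks alone and 21 held both. Of the 195 replicate 1 peaks, 20 had a replicate 2 partner, against 46.9% of all replicate 1 arm peaks. The combined list held 89.3% of replicate 1 arm peaks with a partner and 10.6% of those without. Few partners therefore come with the choice of stretches that lack combined peaks. The median score (5.06) and width (182 bp) of the 195 were below those of all replicate 1 arm peaks (7.12 and 226 bp). They were near those of replicate 1 arm peaks without a partner (5.21 and 189 bp). In the centre's stretches 44 of the 181 had a partner, with a median score of 4.34 and width of 176 bp.

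**Figure D3:**
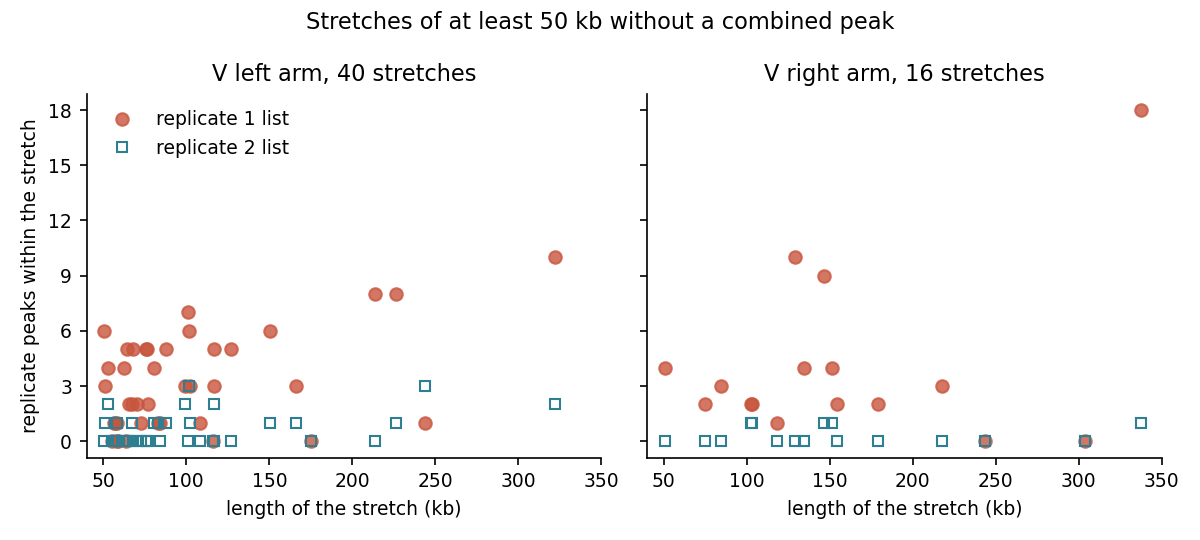
Each stretch of at least 50 kb without a combined peak on the V left arm (40) and right arm (16), by its length in kb and the number of replicate 1 peaks (filled circles) and replicate 2 peaks (open squares) wholly within it. Replicate 2 peaks number 3 at most, while replicate 1 peaks reach 10 on the left and 18 on the right.

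In the combined list, presence in both replicates was less frequent for arm peaks than for centre peaks. The partner shares of the replicate lists lay on opposite sides, so by the rule above no difference is stated. Those shares rest on the same overlaps over lists of different length, so they are not independent checks of the combined list. An overlap of at least 1 bp counted as presence. Of the 608 arm peaks, 530 overlapped both replicate lists (87.2%, Wilson interval 84.3 to 89.6%), against 726 of 772 in the centre (94.0%, 92.1 to 95.5%) and 90.4% of all 9187 combined peaks. The difference from the centre was −6.87 points (Newcombe interval −10.1 to −3.79), and that from all peaks outside the V arms was −3.41 (−6.37 to −0.902). Replicate 1 alone was overlapped by 76 arm peaks (12.5%), replicate 2 alone by 2 (0.329%) and neither by 0. The left arm had 239 of 279 in both (85.7%, 81.1 to 89.3%) and the right arm 291 of 329 (88.4%, 84.5 to 91.5%), a difference of −2.79 points (−8.29 to 2.54), whose interval includes 0. With midpoints within 500 bp as the rule, arms minus centre was −4.27 points (−7.58 to −1.10). When overlap had to reach 50% of both peaks it was 3.43 points (−1.52 to 8.30), an interval that includes 0. With 50% the left arm was at 63.8% and the right arm at 76.0%, a difference of −12.2 points (−19.4 to −4.89).

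The share with a partner was lower on the arms than in the centre in replicate 1, and higher in replicate 2. Both shares count the same overlaps, over 1192 and 595 peaks on the arms and 1279 and 912 in the centre. Their opposite signs go with these unequal lengths and are not separate results. In replicate 1, 559 of 1192 arm peaks had a replicate 2 partner (46.9%, 44.1 to 49.7%), against 823 of 1279 in the centre (64.3%, 61.7 to 66.9%) and 55.0% of all replicate 1 peaks. In replicate 2, 570 of 595 arm peaks had a replicate 1 partner (95.8%, 93.9 to 97.1%), against 812 of 912 in the centre (89.0%, 86.8 to 90.9%) and 91.2% of all replicate 2 peaks. Arms minus centre was therefore −17.5 points (−21.3 to −13.6) in replicate 1 and 6.76 points (4.08 to 9.33) in replicate 2. Replicate 1 peaks without a partner had a density of 61.9 per Mb on the arms and 42.8 in the centre, and replicate 2 peaks without a partner 2.44 and 9.39. The replicate 1 difference had the same sign when the whole lists had equal length. With replicate 1 reduced to its 9817 best scores, the length of replicate 2, 61.9% of its arm peaks and 80.5% of its centre peaks had a partner, a difference of −18.6 points (−23.0 to −14.1). Within the regions the lengths stayed unequal. The reduced list held 784 arm and 748 centre peaks, against 595 and 912 in replicate 2. This comparison therefore cannot set the difference apart from list length. Of the 633 arm peaks of replicate 1 without a partner, 67 overlapped a combined peak (10.6%), near the 10.4% of all such replicate 1 peaks. Of the 25 of replicate 2, 0 did (Wilson interval 0 to 13.3%), an interval that includes the 5.33% of all 863 such replicate 2 peaks.

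**Figure D4:**
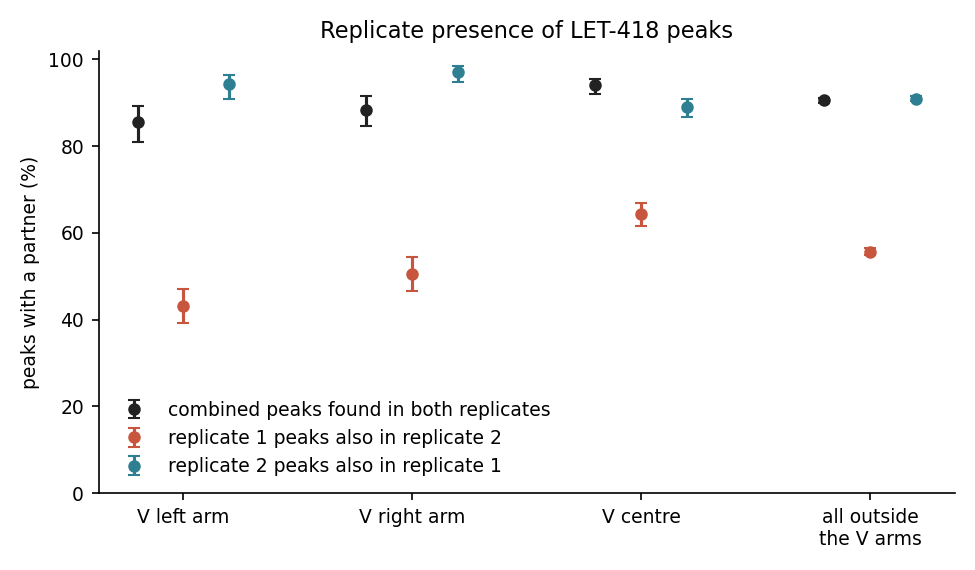
Percentage of peaks with a partner by at least 1 bp on the V left arm, the V right arm, the V centre and outside the V arms. Points are combined peaks found in both replicates, replicate 1 peaks also in replicate 2 and replicate 2 peaks also in replicate 1, with 95% Wilson intervals (counting error only); on the arms replicate 1 is below its centre value and replicate 2 above it.

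High-scoring peaks were more frequent on the right arm than on the left. The score was given by the authors without a scale, and served only to order peaks within a list. The highest arm score was on the right in replicate 1 (43.2, against 40.0) and on the left in replicate 2 (31.8, against 30.4). The median combined score was 3.93 on the left arm (quartiles 2.67 and 5.59), the same as the median of the whole list, and 5.30 on the right arm (3.93 and 7.17), against 3.71 in the centre (2.67 and 4.83). Of the right-arm peaks, 75.1% were at or above the list's median score, against 52.3% of left-arm peaks. Left minus right was −22.7 points (−30.0 to −15.1), −19.3 (−24.7 to −13.7) in replicate 1 and −24.2 (−31.7 to −16.4) in replicate 2, each against its own list's median. Arms minus centre was 20.3 points (15.1 to 25.4), 6.45 (2.51 to 10.4) in replicate 1 and 16.2 (11.0 to 21.2) in replicate 2. Right minus centre was 30.8 points (24.7 to 36.4), 15.9 (11.2 to 20.5) in replicate 1 and 27.5 (21.3 to 33.2) in replicate 2. Left minus centre was 8.03 points (1.20 to 14.8) in the combined list, but −3.38 (−8.21 to 1.51) in replicate 1 and 3.23 (−3.40 to 9.91) in replicate 2, so a difference from the centre is stated for the right arm and not for the left.

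At the ceiling of the combined score, 9.03, stood 6 of 279 left-arm peaks (2.15%, 0.989 to 4.61%), against 33 of 329 right-arm peaks (10.03%, 7.23 to 13.8%), a difference of −7.88 points (−11.8 to −4.15). In the centre it was 9 of 772 (1.17%, 0.615 to 2.20%), and outside the V arms 2.41%. The ceiling was reached by 246 peaks in all. Among the 246 best scores of replicate 1 were 6 left-arm and 29 right-arm peaks (1.03% and 4.78% of each arm's peaks, against 1.52% of its list). Among those of replicate 2 there were 5 and 27 (1.81% and 8.49%, against 2.51%). Of the 39 ceiling peaks of the arms, 25 lay in the outer part of the right arm, 8 in its inner part, 4 in the outer and 2 in the inner part of the left arm. The share at the ceiling was 10.2% (7.04 to 14.7%) in the outer and 9.41% (4.85 to 17.5%) in the inner part of the right arm, with overlapping intervals. Of the 39, 33 were in regions of several peaks and 6 stood alone, while 63.0% of all arm peaks were in such regions. Most of them were on the right arm, with 29 of 33 in regions there and 4 of 6 on the left. The centre went the other way, with 4 of its 9 ceiling peaks in regions, against 64.1% of its peaks.

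**Figure D5:**
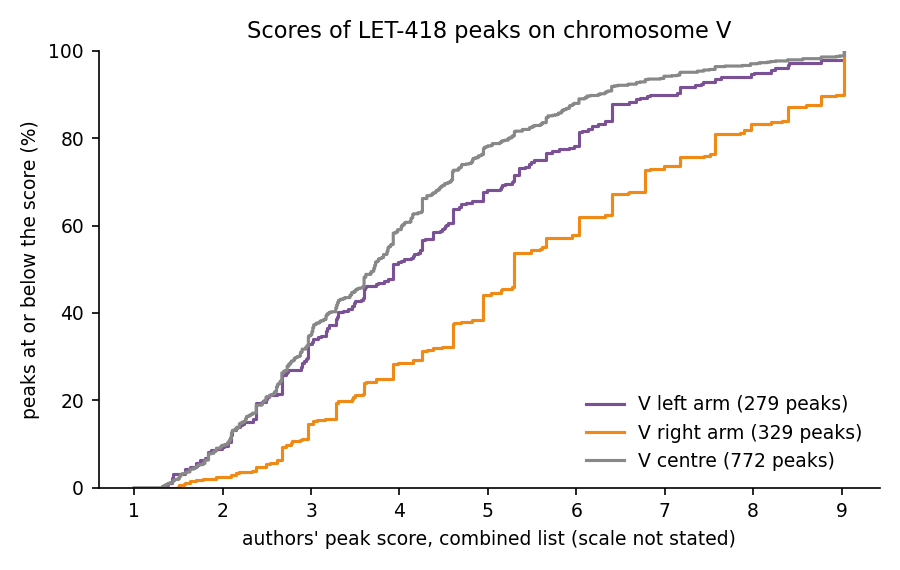
Cumulative percentage of combined peaks at or below each score for the V left arm (279 peaks), right arm (329) and centre (772). The right arm's curve lies to the right of the others and ends in a step at the ceiling of 9.03, where 10.03% of its peaks stand, against 2.15% on the left arm and 1.17% in the centre.

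Scores of the replicates followed each other on the arms. At the 500 arm sites where exactly 1 peak of each replicate overlapped, the scores had a Spearman's rho of 0.76, against 0.65 at 681 sites of the centre. It was 0.69 on the left arm and 0.78 on the right, against 0.70 over all such sites of the genome, so the left arm was near the genome value. These values are given as a description because sites share their libraries. With all 7530 such sites of the genome ranked within each replicate, right-arm sites had a median percentile of 73.5 in replicate 1 and 72.7 in replicate 2. Left-arm sites had 56.4 and 45.3, so the left arm stood above the middle of the ranking in replicate 1 and below it in replicate 2. The mean difference, replicate 1 minus replicate 2, was 5.83 percentile points on the left arm (SD 23.0, n = 222 sites), 2.26 on the right arm (SD 19.3, n = 278) and −0.781 in the centre (SD 22.6, n = 681).

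The 5 best-scoring peaks of each arm, with ties at the ceiling ordered by the sum of their score ranks in the 2 replicate lists, show how different the surroundings of strong sites could be. On the left arm the first was the 231-bp peak from 4063650 to 4063880, which scored 40.0 in replicate 1 and 31.8 in replicate 2. Its nearest combined peaks were 33.7 kb to the left and 67.2 kb to the right. The second, from 2008498 to 2008701 (35.5 and 29.7), stood 116.9 kb and 45.6 kb from its neighbours. Both were solitary. The other 3, from 2066613 to 2067399 (31.2 and 20.3), 5826150 to 5826544 (32.9 and 18.8) and 1473679 to 1473878 (28.0 and 18.0), each had a combined peak within 1 kb.

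On the right arm the first was the 972-bp peak from 19933107 to 19934078, with 43.2 in replicate 1 and 30.2 in replicate 2. The peak from 18686471 to 18687202 (37.8 and 25.6) followed the isolated peak at 17519235 (38.5 and 26.8). The remaining pair, from 20423170 to 20423385 (40.7 and 22.9) and from 20423758 to 20424008 (37.0 and 22.9), were 0.372 kb apart. All but the peak at 17519235 had a neighbour within 1 kb. The widest combined peaks were 2254 bp on the left arm, from 3653305 to 3655558, and 2408 bp on the right arm, from 20100972 to 20103379. The left one overlapped 3 replicate 1 peaks of at most 917 bp and 1 replicate 2 peak of 2665 bp, and the right one overlapped 1 peak of similar width in each replicate (2467 and 2415 bp). The outermost arm peaks ran from 8465 to 9378 on the left and from 20839562 to 20839707 on the right, and both were found in both replicates.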

How the data were processed

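ChIP-seq peak lists were analysed for 2 LET-418 ChIP replicates, with the combined list of the series. The submitters' processing notes name BWA and the ce10 build. Per the file headers, positions are on WormBase WS220 and the caller is given as MACS. Neither versions and threshold nor the use of the input and the way of combining replicates are stated (not given in the sources used here). Per peak, the authors deposited 1 score, with no counts, so no depth or precision of a single peak can be given. The arms were chosen by midpoint, and the arms, the lists compared and the tests were chosen with earlier results of these data known. Peaks sharing 1 bp or more counted as overlapping. Densities have exact Poisson intervals, their ratios exact conditional binomial intervals, shares Wilson intervals and differences of shares Newcombe intervals, all at 95%. Medians have no test. No resampling was made. Stretches without a peak were at least 50 kb long, and replicate peaks were counted wholly within them. A stretch belongs to the region of its midpoint, and shares of length count only the bases inside the region. Single sites followed fixed rules, namely the 5 best scores, 3 widest peaks, 3 regions with most peaks and 5 longest stretches of each arm, and the widest replicate peaks. The right-arm sparse band was added after seeing the data, as were the comparison of scores and the outer and inner parts of the arms. Alternatives were each replicate list, better-scoring peaks, peaks found in both replicates, boundaries moved by 500 kb, other overlap, joining and stretch lengths, joined regions and covered bases in place of peaks, and, added later, replicate 1 reduced to the length of replicate 2. The code was tested on simulated lists. No genome or annotation of WS220 was used, so no sequence or gene at a peak is given. Software was SciPy 1.17.1, NumPy 2.4.6 and pandas 2.3.3 under Python 3.11.15, with matplotlib 3.10.9 for figures.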

Additional observations from a re-analysis of the deposited data

How the results depend on the processing

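Of 90 alternative values, 60 kept their side of the threshold or, with no test, moved by less than the spread between replicates. Of the other 30, 18 with no test moved by more, 6 changed direction, 3 no longer passed the threshold and 3 newly passed it. The left to right density ratio stayed below 1 in all (0.43 to 0.75, with 0.54 for covered bases), and lay between 0.64 and 0.71 without 1 replicate. The arms to centre density ratio was 0.68 to 0.97 without 1 replicate, 1.197 in the better-scoring peaks (median score and above) and 1.09 (0.99 to 1.21) with replicate 1 reduced to the length of replicate 2. In that better-scoring set, the share in both replicates (left minus right) turned to 3.33 points and the share in joined regions (arms minus centre) to 16.6. It also gave median spacing ratios of 4.29 (left to right) and 0.26 (arms to centre) and median width ratios of 1.06 (left to right) and 0.94 (arms to centre). With a reciprocal overlap of 50% the share in both replicates was −12.2 points (left minus right) and 3.43 (arms minus centre). Without 1 replicate, as each list's share with a partner in the other, it was −7.50 to −2.95 and −17.5 to 6.76. The share in joined regions was −2.07 (left minus right) within 500 bp and −6.81 with boundaries moved towards the centre. Without 1 replicate it was −12.2 to −9.67 (left minus right) and −5.80 to −1.43 (arms minus centre). In peaks found in both replicates the spacing ratio was 1.66 (left to right) and the width ratio 1.01 (arms to centre). With boundaries moved towards the ends and towards the centre, the left to right spacing ratio was 1.65 and 1.23, and towards the centre the arms to centre width ratio was 1.00. With stretches of at least 100 kb the peak-free share was 19.5 points (arms minus centre) and −12.4 (left minus right). Without 1 replicate, the spacing ratios were 1.47 to 1.68 (left to right) and 1.07 to 1.39 (arms to centre), the width ratios 0.99 to 1.03 and 0.94 to 0.96, and the peak-free shares −1.97 to 7.69 points (left minus right) and 8.59 to 16.1 (arms minus centre). Leaving out a replicate means using the other replicate's list in place of the combined list. The cause of these changes was not tested. The better-scoring set and the peaks found in both replicates also held fewer peaks. No paired analysis was possible because only 1 group, the ChIP samples, has peak lists. Without read counts, depth limits every comparison of replicate lists to an unknown degree.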
